A study of Mus musculus with 30 samples.

Results

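Transcripts of cholesterol synthesis, sensing, uptake and export were examined in liver and subcutaneous fat of mice with altered growth hormone receptors. The group was defined by name as 29 genes: 18 for sterol synthesis, 5 for sterol sensing and intracellular sterol transport, and 6 for esterification, uptake and export. Probes were taken whose platform annotation gives a listed gene as the only symbol. This found 27 of the 29 genes on 49 probes, out of 46643 probes and 19406 named genes in all. Acat2, a thiolase of the first step, and Soat2, which esterifies cholesterol in liver and gut, were not analysed here. The data are 30 Illumina bead arrays in 10 groups of 3, since 5 genotypes were sampled for 2 tissues. Total RNA came from frozen tissue of male mice killed at 4 months after a night without food, so all groups share the fast. The knock-in groups are called 569 and 391, after the amino acid at which the receptor ends, and Box1, after the mutated region. In KO the receptor is absent, and WT carries the normal receptor. The sources used here give neither the strain nor the number of founder lines. Whether arrays of a group are separate animals is also not stated, and the p-values then cover array-to-array spread alone, which may be technical.

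As background, sterol supply in mammalian cells is set by SREBP2, the product of Srebf2. Scap escorts this factor from the endoplasmic reticulum to the Golgi, where it is cut and released. The Insig proteins hold Scap back when sterols are plentiful. Freed SREBP2 raises the enzymes that carry acetyl units through mevalonate, squalene and lanosterol to cholesterol, and the proteins that bring sterol in. The liver also takes cholesterol from high-density lipoprotein through SR-BI, the product of Scarb1, and passes it to bile through the transporter pair Abcg5 and Abcg8. Fat cells make little cholesterol but store much of it unesterified. Growth hormone acts on hepatic cholesterol handling, as is known best from the rat, and its receptor signals through JAK2, which binds at Box1, and through STAT5.

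Each value is a deposited ratio in which a probe's median over the 15 arrays of a tissue is 1. It holds no level, so signal over background is unknown, and neither probes nor tissues can be ranked by abundance. Markers of hepatocytes or fat cells can therefore show which arrays differ but cannot establish the tissue. In bulk tissue, fewer cells of a type and less RNA per cell cannot be told apart. Ghr probe 2260156 read 0.3, 0.26 and 0.23 in Box1 livers and 1.51, 1.09 and 1.26 in KO livers, against 1.09, 0.92 and 1.27 in WT livers. It was called lower in Box1 (-2.05, adjusted p = 0.0002) and not in KO (0.23, adjusted p = 0.78), and probe 100360095 was called in neither. As no source used here places those probes relative to the removed or mutated part, they do not check the KO or Box1 label. Igf1, the main hepatic target of the hormone, fell in 391, Box1 and KO livers, with log2 differences from WT of -5.31, -5.30 and -4.39 (probe 3130377, limma, adjusted p = 1e-10, 8.58e-11 and 1.17e-09). Several arrays held RNA of other organs. In liver, exocrine pancreas markers exceeded 2-fold for 13 and 11 of 16 probes in 391 replicates 2 and 3, against 0 of 16 in each other liver array, and muscle markers did so for 8 of 12 probes in 391 replicate 2. In fat, the median hepatocyte marker stood at 4.66 (log2) in Box1 replicate 2 and 2.63 in WT replicate 2, and the median adipocyte marker at -3.18 in 569 replicate 3. At least 9 of 12 muscle probes exceeded 2-fold in 6 fat arrays, namely 569 replicates 1 and 3, 391 replicate 3, Box1 replicate 3 and KO replicates 2 and 3, against 0 of 12 in each WT fat array. This cut is relative to the fat median and does not make the remaining arrays free of muscle RNA. The median muscle marker (log2) was -0.67 in KO replicate 1 and 0.97 in 391 replicate 1, against -3.00, -2.12 and -2.84 in WT fat. The median acute phase marker in liver (log2) was 0.76, 0.37 and -0.40 in 569, 0.28, 0.63 and -0.06 in 391, 0.12, 0.33 and 0.08 in Box1 and -0.22, -0.30 and 0.15 in KO, against -1.15, -1.53 and -1.44 in WT. WT livers were thus below all mutant livers for these markers, and the part of this in the differences from WT was not tested. By the chip numbers in the sample titles, 569 and WT of a tissue shared a slide, 391 and KO of a tissue shared another, and Box1 of both tissues shared the remaining one. Slide therefore cannot be told apart from genotype when 391, Box1 or KO is set against WT, 391 against 569, or KO against Box1.

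The promoters of 22 of the 27 measured genes could be read from RefSeq (GRCm38.p6) as windows of 250 bases before to 50 after a start, 29 windows in all. They were searched on both strands for TCACNCCAC, the core of a sterol regulatory element, for CCAAT, the NF-Y box, and for GGGCGG, the Sp1 box. The letters CCAAT occurred in 69% of the member windows and in 37.4% of all 32851 windows of the table, and GGGCGG in 72.4% and 35.7%. The sterol element core was found once among members, in Hmgcs1, at position -137 from the start, and in 1.24% of all windows. A match describes letters and no site, and its absence says nothing about the factor. The windows below belong to the 4 members that were called in liver and have a window (Srebf2, Tm7sf2, Hsd17b7, Lcat), to Hmgcs1 for its sterol element letters, and to Msmo1, whose ratios spread most within genotypes. Capitals mark every match to the 3 motifs on either strand.
Srebf2, chr15:82147019-82147318, plus strand: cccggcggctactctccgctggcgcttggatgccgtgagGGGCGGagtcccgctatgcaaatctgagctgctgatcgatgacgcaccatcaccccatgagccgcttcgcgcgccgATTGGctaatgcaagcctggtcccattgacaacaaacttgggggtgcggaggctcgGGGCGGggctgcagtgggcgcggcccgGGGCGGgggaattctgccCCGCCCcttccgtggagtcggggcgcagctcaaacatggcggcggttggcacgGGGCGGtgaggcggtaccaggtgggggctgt
Hmgcs1, chr13:119690101-119690400, plus strand: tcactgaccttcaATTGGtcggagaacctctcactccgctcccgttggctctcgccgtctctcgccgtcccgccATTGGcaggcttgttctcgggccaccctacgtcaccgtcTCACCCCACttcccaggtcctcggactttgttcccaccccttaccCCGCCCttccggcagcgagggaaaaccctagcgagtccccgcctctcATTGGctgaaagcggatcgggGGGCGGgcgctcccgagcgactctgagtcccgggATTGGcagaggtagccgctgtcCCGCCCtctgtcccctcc
Tm7sf2, chr19:6067801-6068100, minus strand: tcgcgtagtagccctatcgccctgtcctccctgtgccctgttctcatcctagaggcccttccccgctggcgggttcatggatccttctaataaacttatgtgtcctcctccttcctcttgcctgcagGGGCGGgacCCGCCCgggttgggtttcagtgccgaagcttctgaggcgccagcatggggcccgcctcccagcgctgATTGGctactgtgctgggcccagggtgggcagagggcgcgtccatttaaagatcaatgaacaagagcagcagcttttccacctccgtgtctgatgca
Msmo1, chr8:64733529-64733828, minus strand: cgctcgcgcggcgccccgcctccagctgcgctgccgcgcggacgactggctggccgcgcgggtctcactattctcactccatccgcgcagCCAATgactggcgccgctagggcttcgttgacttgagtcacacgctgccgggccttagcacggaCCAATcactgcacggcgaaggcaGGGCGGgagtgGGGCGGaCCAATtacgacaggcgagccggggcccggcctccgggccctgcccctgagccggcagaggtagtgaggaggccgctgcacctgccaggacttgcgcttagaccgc
Hsd17b7, chr1:169969156-169969455, minus strand: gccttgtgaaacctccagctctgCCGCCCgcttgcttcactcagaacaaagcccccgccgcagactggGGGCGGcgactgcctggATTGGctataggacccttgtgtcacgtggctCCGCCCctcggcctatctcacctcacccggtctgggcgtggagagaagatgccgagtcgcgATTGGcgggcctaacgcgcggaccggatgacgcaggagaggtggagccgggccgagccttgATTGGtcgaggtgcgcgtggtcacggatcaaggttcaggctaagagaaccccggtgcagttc
Lcat, chr8:105943353-105943652, minus strand: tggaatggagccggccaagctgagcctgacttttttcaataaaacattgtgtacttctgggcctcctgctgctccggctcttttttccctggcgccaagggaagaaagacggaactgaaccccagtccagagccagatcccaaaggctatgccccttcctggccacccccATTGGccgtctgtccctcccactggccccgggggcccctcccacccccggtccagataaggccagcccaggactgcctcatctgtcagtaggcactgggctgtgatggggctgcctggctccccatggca
The Srebf2 window carried the Sp1 letters 5 times, the most of these 6 windows, and the NF-Y letters once. Hmgcs1 held NF-Y letters 4 times, and Msmo1 and Hsd17b7 3 times each. The Lcat window had 1 NF-Y match and 0 Sp1 matches. Abcg5 and Abcg8 stand head to head, and their windows share 209 bases.

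In liver the calls of single mutants against WT fell on 4 member genes. Scarb1 was higher in 391, Box1 and KO livers, Srebf2 was higher in 391 and Box1 livers, and Lcat was higher in KO livers. Tm7sf2, the sole synthesis enzyme called in these comparisons (1 of 29 synthesis probes), fell in 391 livers. No member was called in 569 livers. A probe is called where limma's adjusted p (Benjamini-Hochberg over all 46643 probes) is under 0.05. Against WT, 3 of 49 member probes were called in 391 livers (2 higher, 1 lower), where 1.91% of all probes were called. In Box1 livers 3 were called, all higher, beside 1.32% of all probes, and in KO livers 3, all higher, beside 1.93%. In 569 livers 0 of 49 were called, beside 0.00858% of all probes, and 6 had an unadjusted p under 0.05, all lower, beside 7.01% of all probes. At that unadjusted threshold there were 10 member probes in 391 (8 higher, 2 lower), 11 in Box1 (10 higher, 1 lower) and 14 in KO (11 higher, 3 lower), beside 12.4%, 12.3% and 12.7% of all probes. The median difference of the 49 probes was -0.14, -0.01, 0.23 and 0.05 in 569, 391, Box1 and KO, while that of all probes was -0.02, 0.02, 0.02 and 0.01. By role, the 29 synthesis probes had medians of -0.25, -0.11, 0.14 and -0.02, and the 7 probes for esterification, uptake and export had medians of 0.14, 0.40, 0.46 and 0.83. Of these 7 probes 5, 6, 7 and 7 were above 0 in 569, 391, Box1 and KO, beside 42.83%, 55%, 55.91% and 54.66% of all probes. The F test over the 4 mutants called 5 member probes, of Srebf2, Scarb1 and Hsd17b7, where 5.43% of all probes were called. These comparisons share the 3 WT arrays.

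**Figure D1:**
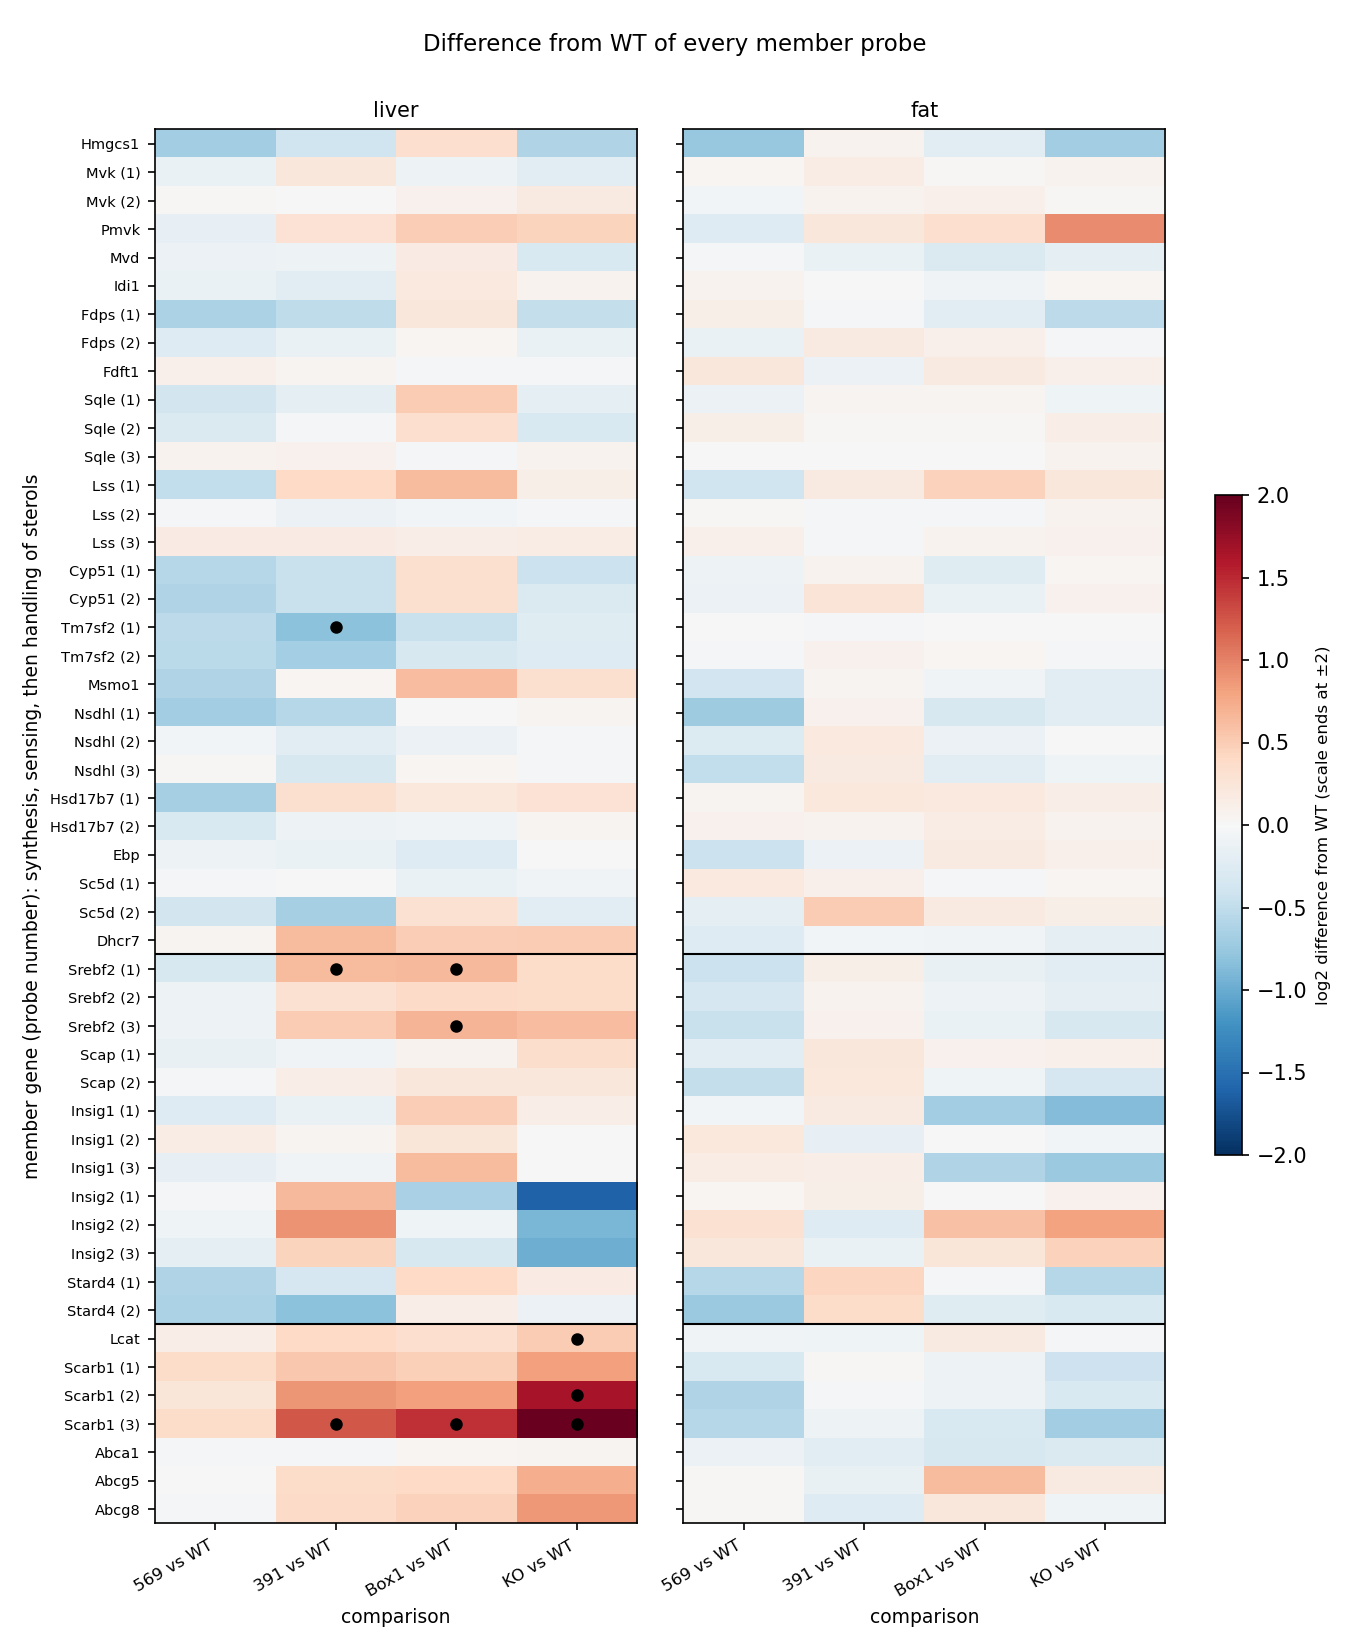
Difference from WT (log2, colour) for each of the 49 member probes (rows, in the order synthesis, sensing, handling) in each mutant (columns), liver on the left and fat on the right, with black dots for called probes. In liver 9 dots appear, 3 each for 391, Box1 and KO and 0 for 569, and in fat there are 0.

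Srebf2, which encodes the factor that drives the pathway, was measured by 3 probes, and all had higher means in 391, Box1 and KO livers than in WT livers. On probe 3390692 the ratios were 0.57, 0.59 and 0.77 in 569 livers, 1.11, 1.28 and 1.33 in 391 livers, 1.05, 1.26 and 1.5 in Box1 livers and 0.98, 1 and 1.11 in KO livers, against 0.9, 0.68 and 0.83 in WT livers. Every array of 391, Box1 and KO lay above every WT array, and 569 overlapped with WT. Here and below ± is the standard error of a fitted log2 difference. The difference from WT was 0.63 ± 0.14 in 391 (adjusted p = 0.038), 0.66 ± 0.14 in Box1 (adjusted p = 0.037) and 0.37 ± 0.14 in KO (adjusted p = 0.27). On probe 106200524 Box1 exceeded WT by 0.68 ± 0.16 (adjusted p = 0.047), 391 by 0.51 (adjusted p = 0.14) and KO by 0.62 (adjusted p = 0.062). Probe 103170091 gave 0.31, 0.38 and 0.37 for 391, Box1 and KO, none of them called. All 6 arrays of the slide with 569 and WT livers read 0.9 or less on probe 3390692, and the 9 others read 0.98 or more.

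On probe 3390692 the direct comparison of both truncations gave the largest Srebf2 difference of the 7 comparisons tested. On probe 106200524 the differences of Box1 and KO from WT, 0.68 and 0.62, were larger than that of 391 over 569. With 391 over 569 the log2 difference was 0.96 ± 0.14 on probe 3390692 (adjusted p = 0.0021) and 0.60 ± 0.16 on probe 106200524 (adjusted p = 0.040). These were 2 of 3 member probes called in that comparison, where 4.7% of all probes were called, and the third belonged to Hsd17b7. At an unadjusted p under 0.05 there were 10, all higher in 391, beside 16.5%. The call on probe 3390692 held in all 15 other settings, with adjusted p between 0.000983 and 0.0386. The 391 and 569 livers lay on different slides, and none of those settings tells slide from genotype. The calls of this probe against WT were less stable. In 391 the call was lost without 391 replicate 2 (adjusted p = 0.085), 391 replicate 3 (0.094), WT replicate 2 (0.18) or WT replicate 3 (0.096), and without both arrays that held pancreatic RNA the difference was 0.48 (adjusted p = 0.32). In a fit of only the 6 arrays of 391 and WT the adjusted p was 0.099. In Box1 it was lost without Box1 replicate 2 (0.12), Box1 replicate 3 (0.16), WT replicate 2 (0.18) or WT replicate 3 (0.11). Probe 106200524 lost its Box1 call in 5 of 6 left-out fits, all but the one without WT replicate 1, and its call of 391 over 569 in 5 of 6, all but the one without 391 replicate 3. The first of these calls was also lost with only the 6 arrays of Box1 and WT (0.069), and the second with centred array medians (0.052), quantile normalization (0.15) or without both pancreatic arrays (0.14).

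Scap, the escort of SREBP2, had ratios of 1.35, 1.15 and 1.25 in KO livers on probe 3800706, against 1.11, 0.87 and 0.97 in WT livers. KO lay above WT throughout, with a difference of 0.35 ± 0.13 (adjusted p = 0.21). Probe 100630402 gave 0.23 in KO and 0.23 in Box1, neither called. Stard4, a cytosolic sterol carrier, varied mainly within genotypes. Its probe 50711 read 0.33, 0.5 and 1.14 in 569 livers, against 1, 0.51 and 1.27 in WT livers, and neither Stard4 probe was called in a comparison.

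Insig2, an anchor of Scap whose liver transcript is known to rise with fasting in rodents, had the widest range of all members in liver. On probe 3840603 the ratios were 2.63, 1.54 and 0.51 in 569 livers, 3.43, 3.88 and 0.62 in 391 livers, 0.69, 0.8 and 1 in Box1 livers and 0.44, 0.66 and 0.26 in KO livers, against 1.65, 1.22 and 1.07 in WT livers. KO arrays were below all WT arrays, while 569 and 391 each held 2 high arrays and a low one. The remaining Insig2 probes gave the same order in KO, with 0.52, 0.6 and 0.54 in KO livers against 1.37, 1 and 0.83 in WT livers on probe 5700605. Over WT the KO differences were -1.61, -0.92 and -0.97 on the 3 probes, with adjusted p = 0.26, 0.33 and 0.28, so none was called. In a fit of the 6 KO and WT arrays alone all 3 were called (adjusted p = 0.019, 0.018 and 0.041). No other setting called an Insig2 probe in KO against WT, and the share of all probes called in that fit is not given here.

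KO and 391 livers shared a slide, and there the Insig2 differences of KO over 391 were -2.26 ± 0.62, -1.82 ± 0.39 and -1.42 ± 0.39 on probes 3840603, 5700605 and 6450451 (adjusted p = 0.23, 0.096 and 0.23). No member was called in that comparison, where 0.18% of all probes were called and 8 member probes had an unadjusted p under 0.05 (8.19% of all probes). Without 391 replicate 3, the low 391 array, the same differences were -3.11, -2.26 and -1.87 and all 3 were called (adjusted p = 0.013, 0.014 and 0.031). Leaving out an array that is low on these same probes enlarges the differences by itself. No other fit with a single array left out called an Insig2 probe. Quantile normalization and the probes whose SD exceeded the median each called probe 5700605 alone (adjusted p = 0.044 and 0.019). The shares of all probes called in these fits are not given here. That array and 391 replicate 2 both held pancreatic RNA, and replicate 2 also held muscle RNA; their Insig2 ratios on probe 3840603 were 0.62 and 3.88. The part of such RNA in the Insig2 values was not tested.

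**Figure D2:**
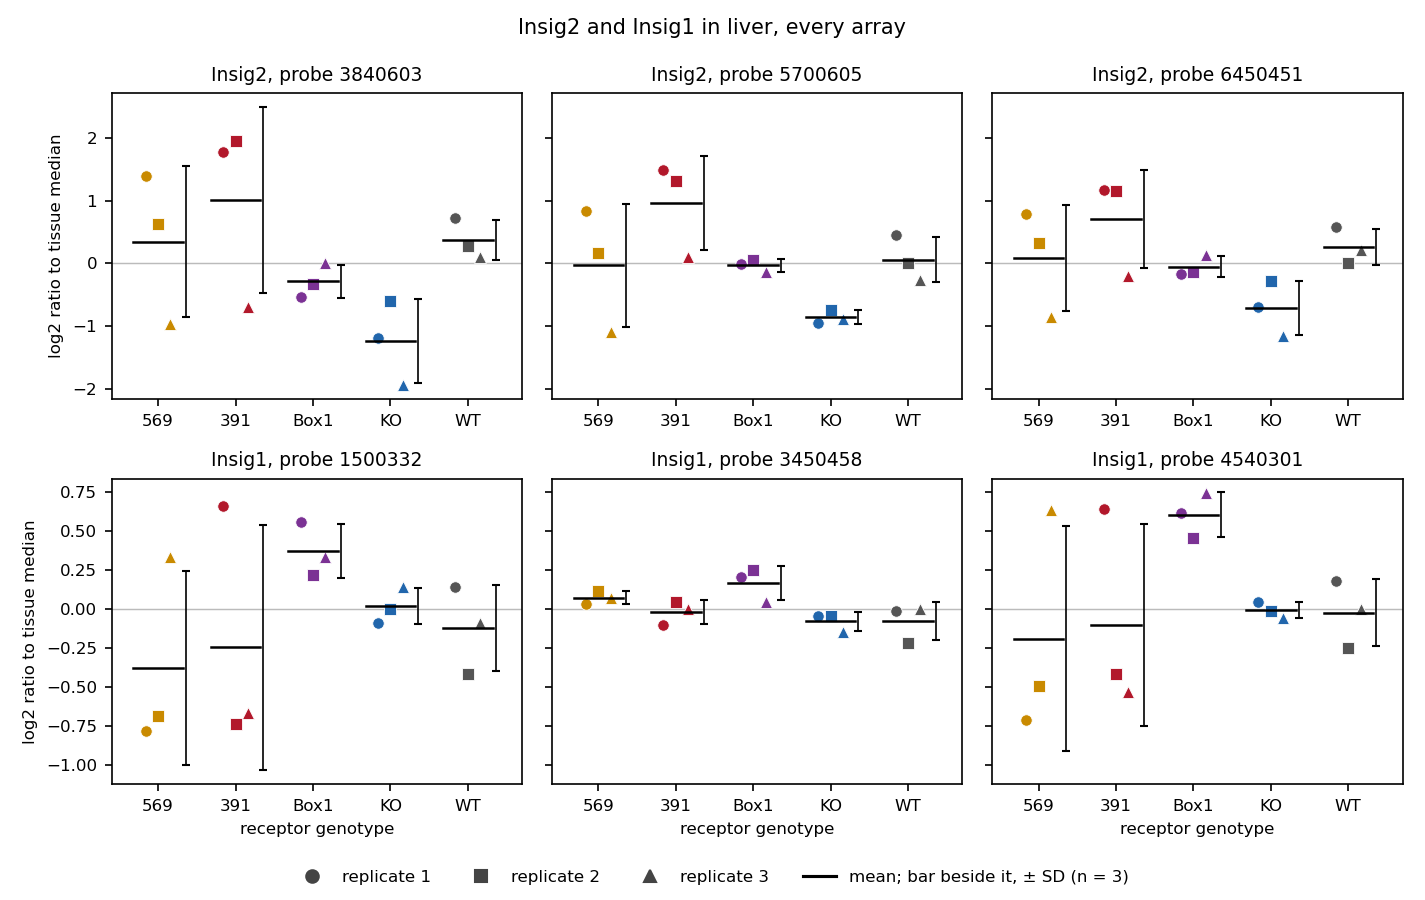
Log2 ratio of the 3 Insig2 probes (top) and the 3 Insig1 probes (bottom) on each liver array, by genotype, with the mean as a line and ± SD (n = 3) as the bar beside it. KO arrays lie below the WT arrays on every Insig2 probe, and Box1 arrays lie above them on every Insig1 probe.

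Insig1, the SREBP2-driven partner of Insig2, showed a different pattern. Probe 4540301 read 0.61, 0.71 and 1.55 in 569 livers, 1.56, 0.75 and 0.69 in 391 livers, 1.53, 1.37 and 1.67 in Box1 livers and 1.03, 0.99 and 0.96 in KO livers, against 1.13, 0.84 and 1 in WT livers. Box1 arrays were above the WT and the KO arrays without overlap. Box1 exceeded WT by 0.63 ± 0.31 (adjusted p = 0.43), and KO over Box1 gave -0.61 ± 0.31 (adjusted p = 0.61). Probe 3450458 moved little, between 0.86 and 1.19 over all 15 livers. In KO against Box1, 0 of 49 member probes were called beside 0.148% of all probes, and 5 had an unadjusted p under 0.05 (8.71% of all probes).

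Tm7sf2, a sterol reductase after lanosterol, was the synthesis enzyme called in a comparison of a single mutant with WT. Its probe 6380288 read 0.74, 0.87 and 1.23 in 569 livers, 0.69, 0.68 and 0.91 in 391 livers, 0.97, 0.97 and 1 in Box1 livers and 1.31, 1.07 and 1.03 in KO livers, against 1.73, 1.21 and 1.14 in WT livers. The 391 and Box1 arrays lay below all WT arrays, and the KO arrays overlapped with them. The difference was -0.83 ± 0.18 in 391 (adjusted p = 0.032), with -0.53, -0.45 and -0.24 in 569, Box1 and KO, none of those called. The companion probe 104200601 gave -0.68 ± 0.20 in 391 (adjusted p = 0.11). The call was lost without 391 replicate 1 (adjusted p = 0.11), 391 replicate 2 (0.086), WT replicate 1 (0.095) or WT replicate 2 (0.069), and without both pancreatic arrays the difference was -0.95 (adjusted p = 0.061). With only the 6 arrays of 391 and WT the adjusted p was 0.13. The F test over the 4 mutants called neither Tm7sf2 probe (adjusted p = 0.074 and 0.23). The synthesis enzyme it called was Hsd17b7, on probe 7000142 (adjusted p = 0.045).

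Hsd17b7, a ketosteroid reductase of the last stages, was lowest in 569 livers. On probe 7000142 the ratios were 1.55, 1.14 and 0.88 in 391 livers, against 0.65, 0.48 and 0.65 in 569 livers, while WT livers read 1.23, 0.7 and 0.94. All 569 arrays were below all 391 and all WT arrays. With 391 over 569 the difference was 0.98 ± 0.22 (adjusted p = 0.019). On the shared slide 569 stood at -0.67 ± 0.22 from WT (adjusted p = 0.52). The call was lost without 391 replicate 1 (adjusted p = 0.083) or 569 replicate 2 (0.11), after quantile normalization (0.058) and with only the 6 arrays compared (0.071), and its companion probe 101500082 differed by 0.20 ± 0.12 (adjusted p = 0.42).

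Several other synthesis enzymes varied widely between arrays of a genotype. Msmo1, the methylsterol oxidase, read 0.24, 0.38 and 1.73 in 569 livers, 0.96, 0.61 and 1 in 391 livers, 0.95, 1.44 and 1.43 in Box1 livers and 1.24, 0.86 and 1 in KO livers, against 1.46, 0.26 and 1.44 in WT livers. Thus 569 replicates 1 and 2 and WT replicate 2 were low, and 569 replicate 3 was high. Sqle, the squalene epoxidase, repeated this on probe 50180 with 0.47, 0.58 and 2.03 in 569 livers, against 1.89, 0.36 and 1.73 in WT livers. Fdps, which makes farnesyl diphosphate, gave 0.38, 0.59 and 2.29 in 569 livers on probe 60022, against 1.58, 0.57 and 2.16 in WT livers. The same 3 arrays were thus low for several enzymes at once. Over the 29 synthesis probes, 23 and 26 were below 1 in 569 replicates 1 and 2, and 20 were above 1 in 569 replicate 3. The median ratio of all probes was 1, 0.98 and 0.98 on these arrays. Replicate 3 was the highest 569 array for 22 of the 29 probes, beside 30.8% of all probes. WT replicate 2 was the lowest WT array for 24 of the 29 probes, beside 35.4% of all probes.

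Medians over the 29 synthesis probes put the spread by array in single values. They were -0.47, -0.47 and 0.31 (log2) in 569 livers, 0.03, -0.17 and 0 in 391 livers, 0, 0.25 and 0.18 in Box1 livers and 0.07, 0.03 and -0.07 in KO livers, against 0.25, -0.32 and 0.24 in WT livers. The SD of these array medians was 0.453 in 569, 0.106 in 391, 0.129 in Box1 and 0.0743 in KO, against 0.327 in WT (n = 3 each), and these SDs were not compared by a test. The typical SD within a genotype was 0.34 for member probes and 0.13 for all probes in liver, and 32 of the 49 member probes lay above the 90th percentile of all probes. In fat these medians were 0.27 and 0.15, with 14 of 49 above the 90th percentile. Among the 569 livers the acute phase median given above was lowest in replicate 3, the array with high synthesis ratios, and among the WT livers it was lowest in replicate 2, the array with low ones. Its part in the synthesis values was not tested.

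**Figure D3:**
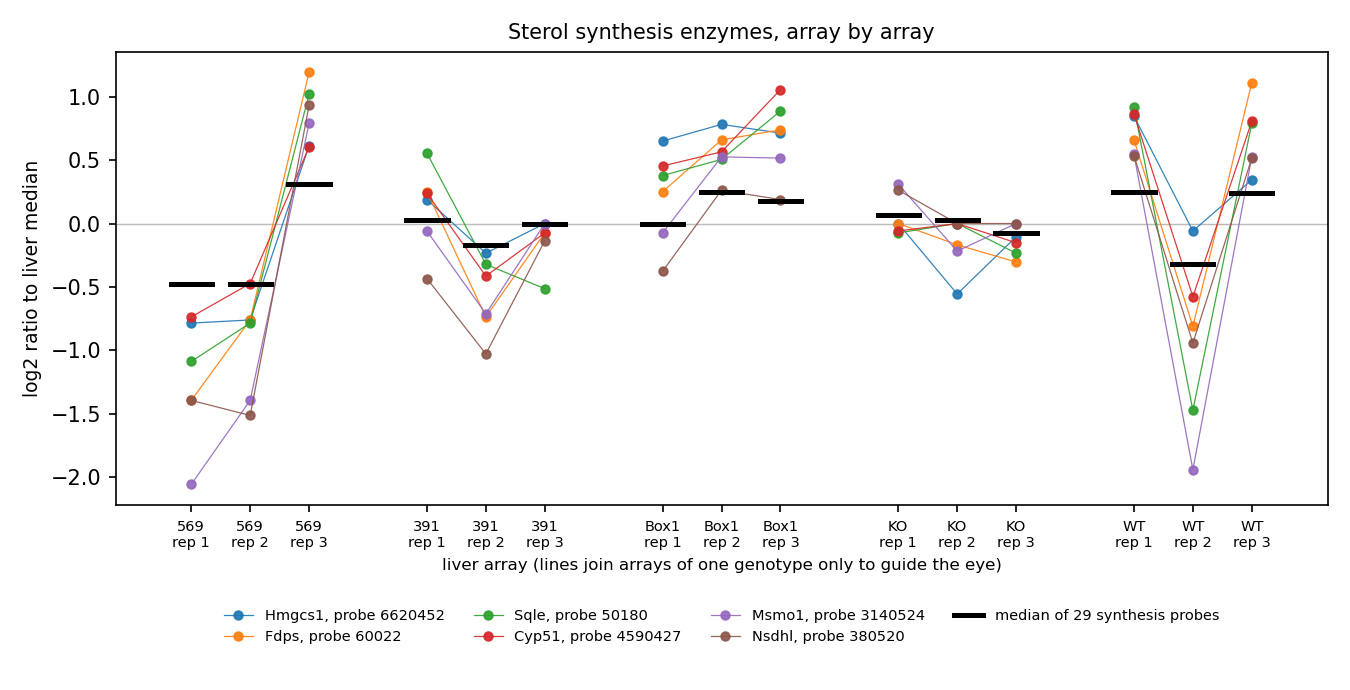
Log2 ratio of 6 synthesis enzymes (coloured points) and the median of the 29 synthesis probes (black bars) on each of the 15 liver arrays, grouped by genotype. In 569 and WT the enzymes stand together at low values on some arrays (569 replicates 1 and 2, WT replicate 2) and at high values on others.

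Along the pathway, Hmgcs1, which makes the precursor of mevalonate and whose window holds the sterol element letters, was evenly high in Box1 livers. It read 0.58, 0.59 and 1.53 in 569 livers, 1.14, 0.85 and 1 in 391 livers, 1.57, 1.72 and 1.64 in Box1 livers and 1, 0.68 and 0.93 in KO livers, against 1.8, 0.96 and 1.27 in WT livers. Box1 lay above KO without overlap, and KO over Box1 gave -0.94 ± 0.30 (adjusted p = 0.35). In a fit of those 6 arrays alone Hmgcs1 was called (adjusted p = 0.012). Sqle probe 50180, Fdps probe 60022 and Cyp51 probe 4590427 were also called there, with differences of -0.69, -0.71 and -0.76. In the limma fit of all 15 livers these 3 had adjusted p = 0.80, 0.78 and 0.57. The other Sqle, Fdps and Cyp51 probes were called in neither fit. The share of all probes called in the 6 arrays alone is not given here. Mvk and Pmvk, the kinases after mevalonate, and Mvd and Idi1, which make and convert isopentenyl diphosphate, stayed between 0.59 and 1.45 on all livers. Among them Pmvk had the largest differences from WT, 0.50 ± 0.19 in Box1 and 0.45 ± 0.19 in KO (adjusted p = 0.26 and 0.31). Fdft1, the squalene synthase, ranged from 0.76 to 1.19.

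Lss, which closes the sterol ring, differed by 0.90 ± 0.28 for 391 over 569 on probe 3170129 (1.55, 1.03 and 0.92 in 391, against 0.5, 0.53 and 0.86 in 569, adjusted p = 0.089). Cyp51, the lanosterol demethylase, read 0.6, 0.72 and 1.52 in 569 livers on probe 4590427, against 1.82, 0.67 and 1.75 in WT livers, the array pattern of Msmo1. Nsdhl, the sterol dehydrogenase, gave 0.38, 0.35 and 1.91 in 569 livers on probe 380520, against 1.45, 0.52 and 1.43 in WT livers. The 569 difference from WT was -0.70 on that probe, but -0.06 and 0.02 on Nsdhl probes 3360402 and 6380563. None of the Nsdhl and Cyp51 probes was called in a comparison fitted on all 15 livers. Ebp, the sterol isomerase, kept between 0.94 and 1.32, with Box1 below WT in every array and a difference of -0.25 ± 0.13 (adjusted p = 0.45). Sc5d, the desaturase, spanned 0.33 to 1.47 on probe 104780253, and its other probe 0.84 to 1.17. Dhcr7, the closing reductase, gave 1.15, 1.11 and 1 in 391 livers, against 0.82, 0.43 and 0.98 in WT livers (0.63 ± 0.30, adjusted p = 0.41). Probes of a gene did not always move alike, since Sqle probe 101690605 stayed between 0.85 and 1.06 and the 2 further Lss probes between 0.89 and 1.13. With no level in the data, a dim probe cannot be told from a steady transcript.

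Scarb1, the receptor through which the liver takes up cholesterol esters from high-density lipoprotein, was the member that rose most. Its probe 101500463 read 0.79, 0.68 and 0.5 in 569 livers, 1, 0.97 and 1.7 in 391 livers, 1.37, 1.74 and 1.09 in Box1 livers and 1.53, 1.72 and 2.85 in KO livers, against 0.63, 0.43 and 0.46 in WT livers. All arrays of 391, Box1 and KO lay above all WT arrays, and 569 overlapped with WT on this probe. The log2 difference from WT was 1.24 ± 0.27 in 391 (adjusted p = 0.026), 1.46 ± 0.27 in Box1 (adjusted p = 0.012) and 1.97 ± 0.27 in KO (adjusted p = 0.000904). In 569 it was 0.37 ± 0.27 (adjusted p = 0.85), with both groups on the same slide. KO over 391, also on a common slide, gave 0.73 ± 0.27 (adjusted p = 0.43), so the order of the mutants was not resolved.

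The second Scarb1 probe, 6770047, read 0.82, 0.77 and 0.65 in 569 livers, 1.04, 0.74 and 2.05 in 391 livers, 1.21, 1 and 1.12 in Box1 livers and 1.84, 1.78 and 2.33 in KO livers, against 0.67, 0.62 and 0.6 in WT livers. KO arrays were above all other arrays except 391 replicate 3. KO exceeded WT by 1.645 on the log2 scale (SE 0.25, adjusted p = 0.0023), 391 by 0.89 (adjusted p = 0.097) and Box1 by 0.81 (adjusted p = 0.15). Probe 510441 gave 0.83 ± 0.21 in KO (adjusted p = 0.054). On that probe all 569 arrays (1, 0.86 and 0.9) lay above all WT arrays (0.75, 0.69 and 0.69), with a difference of 0.37 ± 0.21 on the shared slide (adjusted p = 0.78). Both KO calls of Scarb1 held in all 15 other settings each, with adjusted p of at most 0.0067 and 0.016. The 391 call on probe 101500463 was lost without 391 replicate 3 (adjusted p = 0.072), WT replicate 2 (0.12) or WT replicate 3 (0.10), and the Box1 call without Box1 replicate 2 (0.074), WT replicate 2 (0.067) or WT replicate 3 (0.064). Without both pancreatic 391 arrays the 391 difference was 1.001 on probe 101500463 (adjusted p = 0.15) and 0.72 on probe 6770047 (adjusted p = 0.034). That fit keeps a lone 391 array, which is assumed to vary like the other groups. With only the 6 arrays of 391 and WT the adjusted p on probe 101500463 was 0.089.

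**Figure D4:**
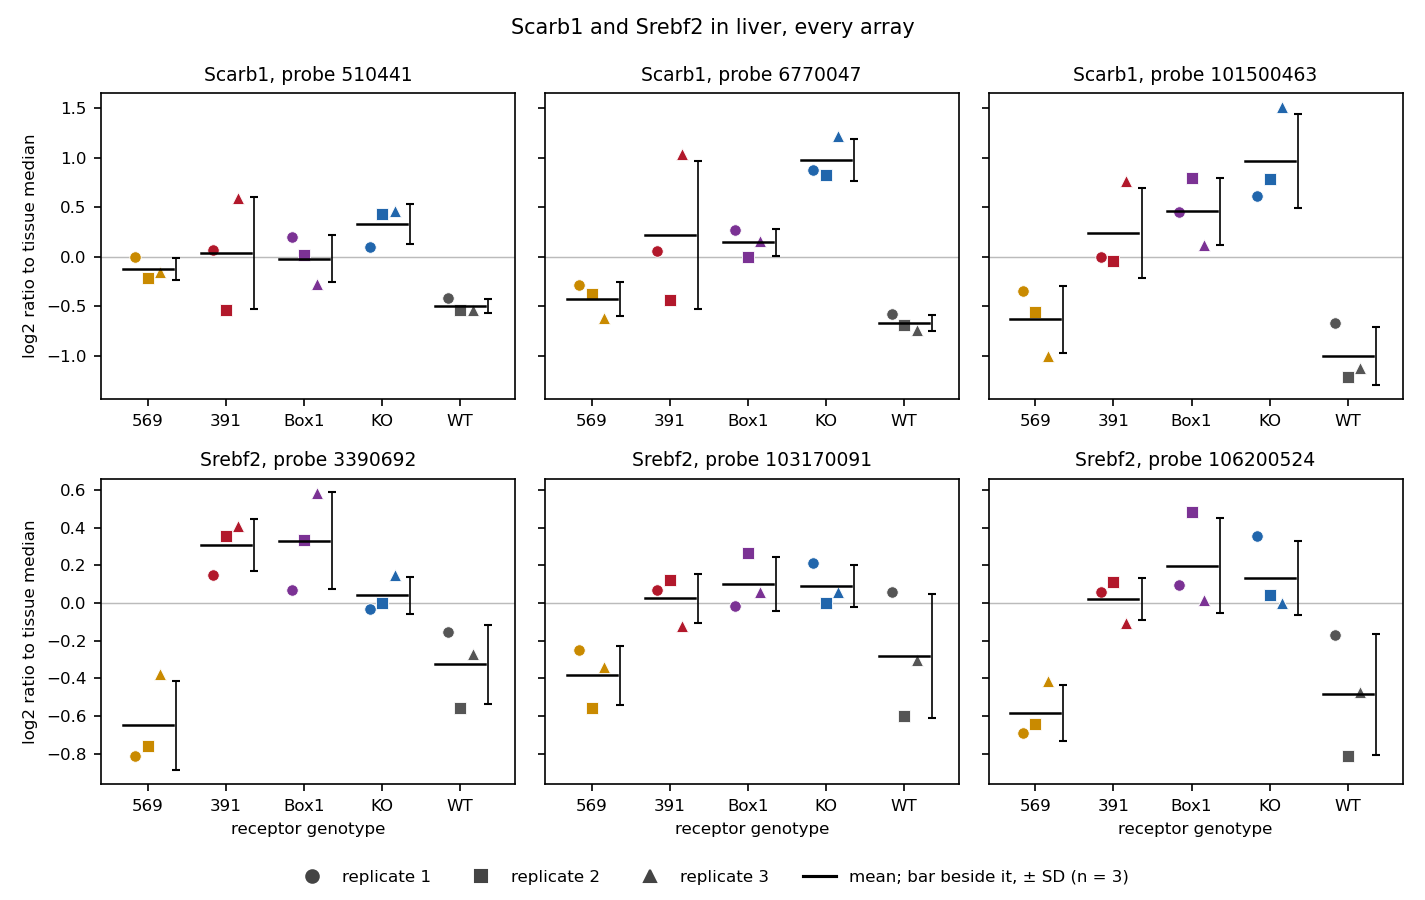
Log2 ratio of the 3 Scarb1 probes (top) and the 3 Srebf2 probes (bottom) on each liver array, by genotype, with the mean as a line and ± SD (n = 3) as the bar beside it. KO arrays lie above all WT arrays on each Scarb1 probe, and 569 arrays overlap with WT on Scarb1 probe 101500463 and on Srebf2 probe 3390692 but lie above WT on Scarb1 probe 510441.

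Lcat, the plasma enzyme that esterifies cholesterol on high-density lipoprotein, read 0.98, 0.95 and 0.83 in 569 livers, 1.07, 1.23 and 1 in 391 livers, 1.19, 0.9 and 1.08 in Box1 livers and 1.21, 1.22 and 1.14 in KO livers, against 0.87, 0.95 and 0.7 in WT livers. KO and 391 arrays were above all WT arrays. KO exceeded WT by 0.51 ± 0.13, which just passed the threshold (adjusted p = 0.0499), and 391 by 0.40 ± 0.13 (adjusted p = 0.15). The KO call was lost in all 6 fits with an array left out, with adjusted p from 0.051 without WT replicate 2 to 0.20 without WT replicate 3, and also after quantile normalization (0.052), with centred array medians (0.051) and with only the 6 arrays compared (0.052).

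Abcg5 and Abcg8, which form the transporter of sterols into bile, had their highest means in KO livers. For Abcg5 the ratios were 0.89, 0.73 and 0.81 in 569 livers, 1.09, 0.79 and 1.3 in 391 livers, 1, 1.02 and 1.14 in Box1 livers and 1.32, 1.3 and 1.34 in KO livers, against 1, 0.56 and 0.92 in WT livers. Abcg8 gave 1.36, 1.39 and 1.82 in KO livers, against 1, 0.64 and 0.9 in WT livers. All KO arrays were above all WT arrays for both genes. The differences, 0.72 ± 0.19 and 0.86 ± 0.24, were not called (adjusted p = 0.073 and 0.095). Both were called without the pair of pancreatic 391 arrays, where the differences stayed at 0.72 and 0.86. Those arrays are in neither KO nor WT, so only the pooled spread and the adjustment changed. With a single array left out, Abcg5 was called only without WT replicate 1, and Abcg8 in no such fit. Abcg8 read 0.92, 0.76 and 1.81 on the 391 arrays. Abca1, the exporter of cholesterol to nascent high-density lipoprotein, had differences from WT between -0.03 and 0.05, none of them called.

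In subcutaneous fat no member was called in any comparison. By limma, 0 of 49 probes were called in 569, 391, Box1 and KO against WT, where 0%, 0.0129%, 0.00214% and 0% of all probes were called. At an unadjusted p under 0.05 there were 3, 1, 1 and 3 member probes, beside 8.96%, 4.58%, 4.54% and 6.24% of all probes. Between mutants 0 were called for 391 over 569 (0.00858% of all probes), KO over 391 (0.0172%) and KO over Box1 (0%), with 12, 4 and 0 at an unadjusted p under 0.05 (12.1%, 6.7% and 2.58% of all probes). The F test called 0 members beside 0.015% of all probes. Without 569 replicate 3, Box1 replicate 2 and WT replicate 2, an omission chosen after the data were seen, the count was still 0 in each comparison. It was also 0 in each without the 6 arrays with muscle RNA, likewise chosen after the data were seen.

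The Scarb1 ratios in fat were 1.34, 1.21 and 0.26 in 569, 1.05, 0.96 and 1.11 in 391, 1.03, 1 and 0.72 in Box1 and 0.75, 0.47 and 0.93 in KO, against 0.94, 1.23 and 1.19 in WT (probe 101500463). KO fat lay below WT fat, with a difference of -0.69 ± 0.49 (adjusted p = 0.90), opposite in sign to liver. Scarb1 probes 510441 and 6770047 gave smaller differences in KO fat, -0.41 and -0.30, neither called. Median muscle markers (log2) were -0.67, 3.58 and 1.28 in these KO arrays, against -3.00, -2.12 and -2.84 in WT fat, and median lymphocyte markers 0.50, -2.56 and -2.12, against 1.04, -1.94 and 0.53. The lowest KO array for Scarb1, replicate 2, had the highest muscle markers of the KO arrays. Without the 6 arrays with muscle RNA the KO difference was -0.57. That leaves KO replicate 1 alone, whose median muscle marker, -0.67, was still above those of WT fat. The single low 569 array was replicate 3, where adipocyte markers were low. Muscle markers were high both there (12 of 12 probes above 2-fold) and in 569 replicate 1 (10 of 12), whose Scarb1 ratio was 1.34. The same array was low for Hmgcs1 (1.07, 1.05 and 0.19 in 569 fat) and for Stard4 on probe 102900441 (1, 0.76 and 0.3). The part of other tissue in these values was not tested. Abcg5 stood at 3.49 in Box1 replicate 2, the array with the highest hepatocyte markers, against 0.93 and 1.21 in the other Box1 arrays.

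Both Insig genes were uneven in fat as well. Insig1 on probe 4540301 read 2.86, 2.48 and 0.64 in 569 fat, 1.16, 2.36 and 1.6 in 391 fat, 0.96, 1 and 0.99 in Box1 fat and 0.9, 0.85 and 0.93 in KO fat, against 1.78, 1.95 and 0.96 in WT fat. The Box1 and KO arrays were level while those of 569, 391 and WT were spread, and KO differed from WT by -0.74 ± 0.47 (adjusted p = 0.88). Insig2 on probe 5700605 gave 1.43, 1.44 and 1.4 in KO fat, against 0.79, 1.58 and 0.43 in WT fat, a difference of 0.81 ± 0.35 (adjusted p = 0.78). Without 569 replicate 3, Box1 replicate 2 and WT replicate 2 it was 1.29 (adjusted p = 0.070). Insig2 probes 3840603 and 6450451 gave smaller KO differences in the fit of all fat arrays, 0.09 and 0.46. Pmvk had the largest KO difference of a member in fat, with 1.94, 1.72 and 1.19 in KO fat, against 0.79, 1.18 and 0.6 in WT fat (0.94 ± 0.35, adjusted p = 0.70). Srebf2 differed from WT by -0.43 to 0.11 on probe 3390692.

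**Figure D5:**
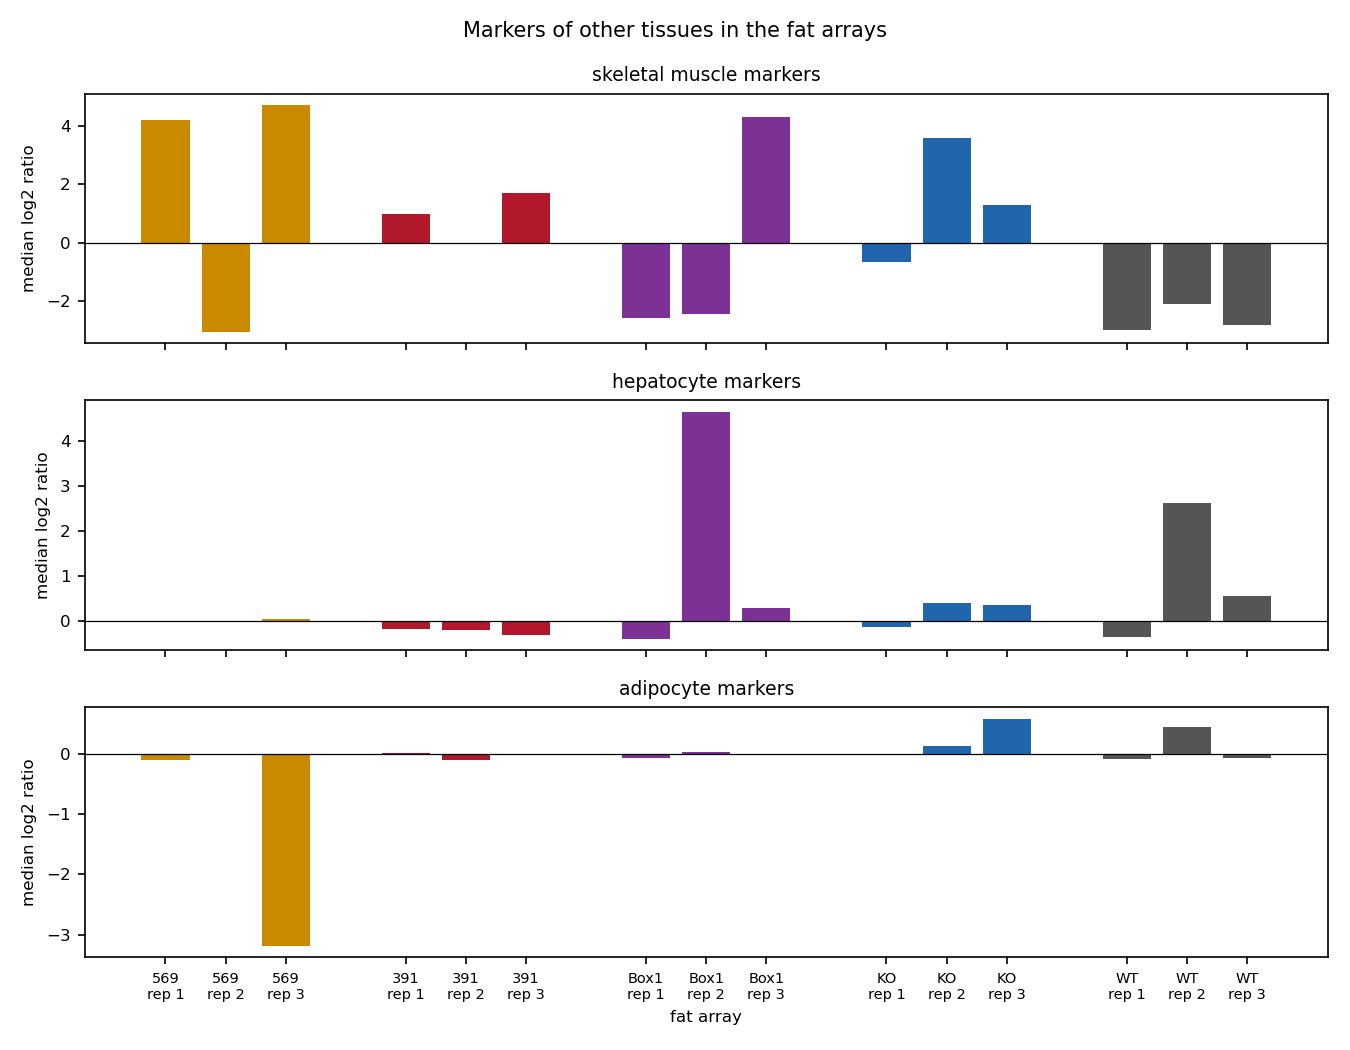
Median log2 ratio of skeletal muscle, hepatocyte and adipocyte markers (bars, from 0) on each of the 15 fat arrays, by genotype. Muscle markers reach 4.72 in 569 replicate 3, hepatocyte markers 4.66 in Box1 replicate 2, and adipocyte markers are lowest, at -3.18, in 569 replicate 3.

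Whether a mutant's difference from WT was unequal in liver and fat was tested over all 30 arrays. For KO, 1 of 49 member probes was called, Scarb1 probe 101500463, where 0.341% of all probes were called, and 10 had an unadjusted p under 0.05 (8.52% of all probes). The KO difference was 1.97 in liver and -0.69 in fat, so liver minus fat was 2.66 ± 0.59 (adjusted p = 0.046). The remaining Scarb1 probes gave 1.94 and 1.24 (adjusted p = 0.25 and 0.22). The call was lost in all 12 fits with 1 KO or WT array left out (adjusted p between 0.058 and 0.15), and the difference stayed between 2.38 and 2.88. Without fat 569 replicate 3, Box1 replicate 2 and WT replicate 2 and liver 391 replicates 2 and 3, chosen after the data were seen, it was 2.59 (adjusted p = 0.000998), and Insig2 on probe 5700605 was called with -2.21 (adjusted p = 0.025). Insig2 probes 3840603 and 6450451 were not called there. That fit keeps 5 of the 6 fat arrays named above for muscle RNA, KO replicates 2 and 3 among them. Without all 6 of those fat arrays, which leaves 1 KO fat array, Scarb1 gave 2.54 and Insig2 -1.73. The KO fat array kept there, replicate 1, still had a median muscle marker of -0.67, against -3.00, -2.12 and -2.84 in WT fat. For 569, 391 and Box1, 0 members were called, beside 0%, 0.227% and 0.148% of all probes, with 3, 5 and 3 at an unadjusted p under 0.05 (7.75%, 7.17% and 5.56% of all probes).

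Around these members, 36 further genes of sterol, bile acid, lipoprotein and fatty acid metabolism were listed, and 29 of them had 54 probes. In liver 5 of these probes were called against WT in 391, 3 in Box1, 2 in KO and 0 in 569, all of them higher, beside 1.91%, 1.32%, 1.93% and 0.00858% of all 46643 probes. For 391 over 569, 7 were called, all higher in 391, beside 4.7%. In fat 0 were called in each comparison. Cyp39a1, an oxysterol hydroxylase of bile acid synthesis, rose in 391, Box1 and KO livers by 1.83 ± 0.27, 1.68 ± 0.27 and 1.28 ± 0.27 on probe 1170020 (adjusted p = 0.0027, 0.0053 and 0.024). Cyp39a1 probe 5220722 was called in 391 (0.50, adjusted p = 0.011) and not in Box1 or KO. Lbr, whose product is also a sterol reductase and thus a counterpart of Tm7sf2, was higher by 0.45 in 391 and 0.50 in Box1 on probe 4540671 (adjusted p = 0.049 and 0.035). Ggps1, the branch enzyme to geranylgeranyl diphosphate, rose by 0.59 in 391 on probe 101660685 (adjusted p = 0.013). Lpin1, a phosphatidate phosphatase, was higher by 1.93 in 391 and 2.04 in Box1 on probe 102940241 (adjusted p = 0.024 and 0.020). Fads1, a fatty acid desaturase, was higher by 0.51 in KO on probe 5270537 (adjusted p = 0.012). No further probe of these genes was called against WT in liver. The 391 values include both arrays with pancreatic RNA, and the alternative settings were not examined for these genes.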

How the data were processed

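The deposited values are ratios of bead-array signal. That each probe was divided by its median over the 15 arrays of its tissue is read from the deposited ratios, whose median is 1 for every probe. How the authors corrected background and normalized arrays is not given in the sources used here. Per the labels' protocols, total RNA was extracted with a column kit and labelled with biotin. Ratios were set to log2 with no offset and the linear models of limma 3.58.1 (R 4.3.3) were fitted, with moderated variances, in 1 fit per tissue with 5 genotypes and 1 fit of all 30 arrays for liver minus fat. Tests were two-sided, with Benjamini-Hochberg adjustment across the 46643 probes and a threshold of 0.05. No filter on dim probes could be set. The script was tested on simulated data. Probe names come from the platform annotation (32794 probes with 1 symbol, 55 with several, 13794 with none), and promoter windows from RefSeq, assembly GRCm38.p6. Every probe of a member is given, and none was chosen by its values. Members, lists and tests were chosen with earlier results of these data known. Groups and chip numbers come from the labels, and replicate numbers are in accession order. Precision is limited by having 3 arrays per group. Alternatives were quantile normalization, centred array medians, an offset of 0.1, other probe sets, array weights, robust variances, the 6 arrays compared alone, and arrays left out.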

Additional observations from a re-analysis of the deposited data

Results flagged for a closer look

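For Scarb1 probe 101500463, the KO difference from WT was unequal in the 2 tissues by the interaction test. Liver minus fat was 2.66 on the log2 scale (adjusted p = 0.046). The call was lost in all 12 fits with a KO or WT array left out. By the same test Scarb1 probes 6770047 and 510441 were not called (adjusted p = 0.25 and 0.22). KO and WT lay on different slides in both tissues, and KO fat replicates 2 and 3 held muscle RNA. The KO ratios were 1.53, 1.72 and 2.85 in liver, against 0.63, 0.43 and 0.46 in WT liver, and 0.75, 0.47 and 0.93 in KO fat, against 0.94, 1.23 and 1.19 in WT fat.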

How the results depend on the processing

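The 18 counts of called member probes were recomputed under each alternative, which gave 289 further values. Of these, 250 stayed within 1.5 times the count and 39 moved, and no called difference turned its sign. The 250 include every count of 0 that stayed at 0, so they say little on how stable the calls were. Counts in fat, for 569 against WT, and for liver minus fat in 569, 391 and Box1 stayed at 0 in every setting. In liver, 391 against 569 (3) gave 1 after quantile normalization and 5 with the probes whose SD exceeded the median. The 3 calls of 391 against WT became 1 without both pancreatic arrays and 1 in the 6 arrays alone. KO against 391 (0) gave 1 without those arrays, 1 after quantile normalization and 1 with the more variable probes. KO against Box1 (0) gave 1 without those arrays and 7 in the 6 arrays alone. KO against WT (3) gave 6 with array weights, 6 without the pancreatic arrays, 7 in the 6 arrays alone and 7 with the more variable probes. For liver minus fat in KO (1), array weights gave 2, quantile normalization 2 and the fit without fat 569 replicate 3, Box1 replicate 2 and WT replicate 2 and liver 391 replicates 2 and 3 gave 6. With 1 array left out at a time, the counts ran from 1 to 4 for 391 against 569, from 0 to 3 for 391 against WT, from 0 to 4 for Box1 against WT, from 0 to 5 for KO against 391, from 2 to 5 for KO against WT and from 0 to 0 for liver minus fat in KO. Some settings change the spread or the tested set for all probes, and their shares of all probes called are not given here. These counts are therefore no result about the members in particular. The cause of the shifts was not tested. No paired analysis was possible because the labels give no replicate numbers. Signal over background is unknown for every probe, and slide is a limit on every liver comparison of 391, Box1 or KO with WT.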
